A study of Homo sapiens with 10 samples.

Results

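Semaphorins, plexins and neuropilins were followed by RNA-seq of 10 samples from 4 lines, all of them descended from the human prostate cancer line PC3. The genes were taken by symbol, as every semaphorin of classes 3 to 7, every plexin and both neuropilins that the gene tables list. This gave 31 of 23170 gene rows: 20 semaphorins, 9 plexins and 2 neuropilins. The family was chosen with earlier results of these data known. PC3-Epi (2 samples) is a luciferase-expressing epithelial subpopulation selected by its brightness and its shape. PC3-EMT14 (3 samples) is a mesenchymal population isolated after PC3-Epi cells had been co-cultured with macrophages made from human blood monocytes with IL-4. Lentiviral transduction of PC3-EMT14 with OVOL1 or OVOL2, zinc-finger transcription factors, gave the overexpressing lines PC3-EMT14-OVOL1, with 3 samples, and PC3-EMT14-OVOL2, with 2. All 4 lines thus come from the same luciferase-positive cells, and both OVOL lines descend from 1 isolated population. The labels give no empty-vector group among these samples, so lentiviral transduction and the OVOL gene cannot be told apart in the comparisons with PC3-EMT14.

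Semaphorins are secreted or membrane-bound proteins first known for steering growing axons and now known also for effects on cell movement, vessel growth and immune cells. Plexins are their receptors, and they act on small GTPases to change the cytoskeleton and integrin adhesion. Most secreted class 3 semaphorins bind a neuropilin that sits beside a plexin, whereas membrane-bound semaphorins mostly bind plexins directly, and the neuropilins bind vascular endothelial growth factors as well.

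Levels are FPKM, fragments scaled by transcript length and by a factor for the whole library, here from upper-quartile normalization. Levels of different genes can thus be set side by side. The authors deposited 1 pooled FPKM per line and comparison, with no value per sample, so no value below carries an SD or a test, the depth is unknown, and a ratio of FPKM describes these libraries. A gene is said to be apart in a comparison when its FPKM differed at least 2-fold between the 2 lines and the higher value was at least 1 FPKM, called the floor here. The same rule over all gene rows gives the background for each count. PC3-EMT14 was scaled anew in each comparison it entered, which moved its values by a nearly constant factor of 0.990 or 1.02, and its level is given below as a range or, as a single value, from the table with PC3-Epi unless another comparison is named. The levels of the OVOL lines are those of their tables with PC3-EMT14. Levels of the 4 lines set side by side thus come from more than 1 table and carry this factor, whereas every ratio was taken within 1 table.

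The markers of cell state followed the labels in part. E-cadherin (CDH1) stood at 1.00 FPKM in PC3-EMT14, 16.2 in PC3-EMT14-OVOL1, 39.2 in PC3-EMT14-OVOL2 and 50.6 in PC3-Epi, and the mesenchymal repressor ZEB1 at 7.59, 4.25, 1.77 and 0.130 FPKM in the same order. ZEB1 in PC3-EMT14-OVOL1 was therefore not 2-fold below PC3-EMT14, while N-cadherin (CDH2) was not 2-fold lower in any of the other 3 lines. EPCAM, ESRP1 and CLDN7 were at least 2-fold higher in all 3. GRHL2 was at 15.0 FPKM in PC3-Epi, but at 0.556 with OVOL1 and 0.544 with OVOL2. VIM and SPARC were not 2-fold lower with OVOL1 (log2 ratios -0.53 and 0.22) but were with OVOL2 (-1.77 and -1.31). In PC3-Epi VIM was lower (-2.67), whereas SPARC was just short of 2-fold lower (-0.994). FN1 was at 36.8 FPKM in PC3-EMT14 and 33.8 in PC3-Epi, but at 18.4 with OVOL1 and 16.5 with OVOL2. OVOL1 was 11.3 FPKM in PC3-EMT14-OVOL1 against 0.0238 in PC3-EMT14, and OVOL2 was 831 FPKM in PC3-EMT14-OVOL2 against 0.370. Because PC3-EMT14 came out of a co-culture, 14 macrophage genes were read: CD68, a lysosomal protein, was at 54.1 FPKM in PC3-EMT14 and 13.2 in PC3-Epi, and the other 13 reached at most 0.176 FPKM in any line and summed to between 0.352 and 0.483 FPKM per line, with the complement genes C1QA and C1QB at 0 throughout.

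Promoters are shown for the member that was highest in PC3-Epi relative to PC3-EMT14 (SEMA4A), for the other member that was apart in that direction (SEMA3E), and for the member at the floor that was lowest in PC3-Epi relative to PC3-EMT14 (SEMA7A). Each runs from 250 bases before to 50 bases after a transcript start, 5′ to 3′ on the gene's strand, from RefSeq on GRCh38.p14, with every CpG dinucleotide in capitals.
SEMA4A, chr1:156149694-156149993, plus strand: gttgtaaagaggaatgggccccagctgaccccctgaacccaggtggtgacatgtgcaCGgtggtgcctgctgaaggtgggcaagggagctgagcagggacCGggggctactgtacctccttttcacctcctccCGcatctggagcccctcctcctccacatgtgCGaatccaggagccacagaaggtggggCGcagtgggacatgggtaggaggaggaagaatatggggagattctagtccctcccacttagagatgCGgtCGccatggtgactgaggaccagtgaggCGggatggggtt
SEMA4A, chr1:156153335-156153634, plus strand: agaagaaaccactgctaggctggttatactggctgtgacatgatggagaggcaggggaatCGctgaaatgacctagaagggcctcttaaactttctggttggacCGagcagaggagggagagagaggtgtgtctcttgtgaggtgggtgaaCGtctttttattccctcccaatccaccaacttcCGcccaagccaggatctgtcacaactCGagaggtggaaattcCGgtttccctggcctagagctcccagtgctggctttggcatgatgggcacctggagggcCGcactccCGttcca
SEMA3E, chr7:83649090-83649389, minus strand: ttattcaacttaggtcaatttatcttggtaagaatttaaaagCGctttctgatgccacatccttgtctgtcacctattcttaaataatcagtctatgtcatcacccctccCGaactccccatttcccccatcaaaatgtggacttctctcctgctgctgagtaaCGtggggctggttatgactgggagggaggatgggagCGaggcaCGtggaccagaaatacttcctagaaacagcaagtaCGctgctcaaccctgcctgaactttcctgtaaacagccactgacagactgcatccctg
SEMA7A, chr15:74433655-74433954, minus strand: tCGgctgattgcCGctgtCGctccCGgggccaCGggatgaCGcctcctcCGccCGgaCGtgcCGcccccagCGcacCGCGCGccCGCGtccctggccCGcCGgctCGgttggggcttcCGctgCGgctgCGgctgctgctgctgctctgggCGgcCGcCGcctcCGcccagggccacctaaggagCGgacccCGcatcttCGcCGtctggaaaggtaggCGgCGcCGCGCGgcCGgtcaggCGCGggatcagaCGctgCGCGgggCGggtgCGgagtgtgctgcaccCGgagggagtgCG
These hold 8, 8, 6 and 45 CpG in that order. They are not all the entries of these genes. SEMA4A has 4, with 4 to 10 CpG, and SEMA3E has 2, with 1 and 6 CpG. SEMA7A has 2, with 23 and 45 CpG, of which the richer is shown. The SEMA7A stretch shown holds an open reading frame that begins at an ATG before the start of that entry. It may therefore hold coding sequence of a longer transcript, and its CpG count is not that of upstream DNA alone. Which entry is the main promoter in these lines was not analysed.

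RefSeq gave 48 promoters for 27 of the 31 genes, and NRP1, SEMA3A, SEMA6A and SEMA6B had no entry. SEMA4A and SEMA3E, the genes higher in PC3-Epi, had 6 entries with 1 to 10 CpG. The 4 genes lower in PC3-Epi (SEMA7A, SEMA4B, SEMA6C and PLXNA1) had 7 entries with 6 to 54 CpG, the lowest being 1 of the 3 entries of SEMA4B, so the ranges of the higher and lower genes overlap. The richest entry of each gene held 6 and 10 CpG among the higher genes and between 28 and 54 among the lower genes. For SEMA7A it is the stretch shown above, with the limit given there. Over all 35116 promoters of the table the median was 14 CpG, 45.3% held 10 or fewer and 26.2% held 28 or more. These shares count single entries and not the richest entry of a gene. Among the other 21 genes with an entry the richest entry ranged from 6 to 52 with a median of 32, and 4 held 14 or fewer. Richest entries like those of the lower genes were therefore common in the family. The E-box CACCTG, the sequence that ZEB1 is known to bind, was searched with its other strand CAGGTG and was present in 8 of the 48 promoters (16.7%), against 20.6% of all promoters. Both of the SEMA4A promoters printed above are among the 8, with the first base of the match at position -211 and at position 24 from the start site, where the start site is position 1 and no position 0 is used. They are the only SEMA4A entries that hold it, and the SEMA4A entry richest in CpG does not. The 8 promoters belong to 7 genes. CCGTTA, 1 of several cores that the wider consensus of OVOL2 binding sites allows, was searched with TAACGG on the other strand and was in 0 of the 48 and in 3.07% of all promoters. The other cores were not searched.

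Of the 31 genes, 25 reached the floor in at least 1 line, 7 were apart in at least 1 of the 4 comparisons and 18 reached the floor without being apart in any. The share of all rows is given below for each comparison and was not computed for these counts over all 4. The 6 genes under 1 FPKM in every line were PLXNA4, PLXNC1, SEMA3G, SEMA5B, SEMA6A and SEMA6D, with SEMA5B listed at 0 in all lines. NRP1 was by far the highest of the family, between 169 and 200 FPKM in the 4 lines. It was followed in PC3-EMT14 by SEMA4B, SEMA7A, SEMA3F and SEMA3B, whose levels ran from 58.4 down to 27.7 FPKM. In PC3-Epi the order below NRP1 (192 FPKM) was SEMA3F at 44.5, SEMA4B at 19.9, SEMA3B at 18.4 and SEMA3A at 17.6 FPKM.

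**Figure D1:**
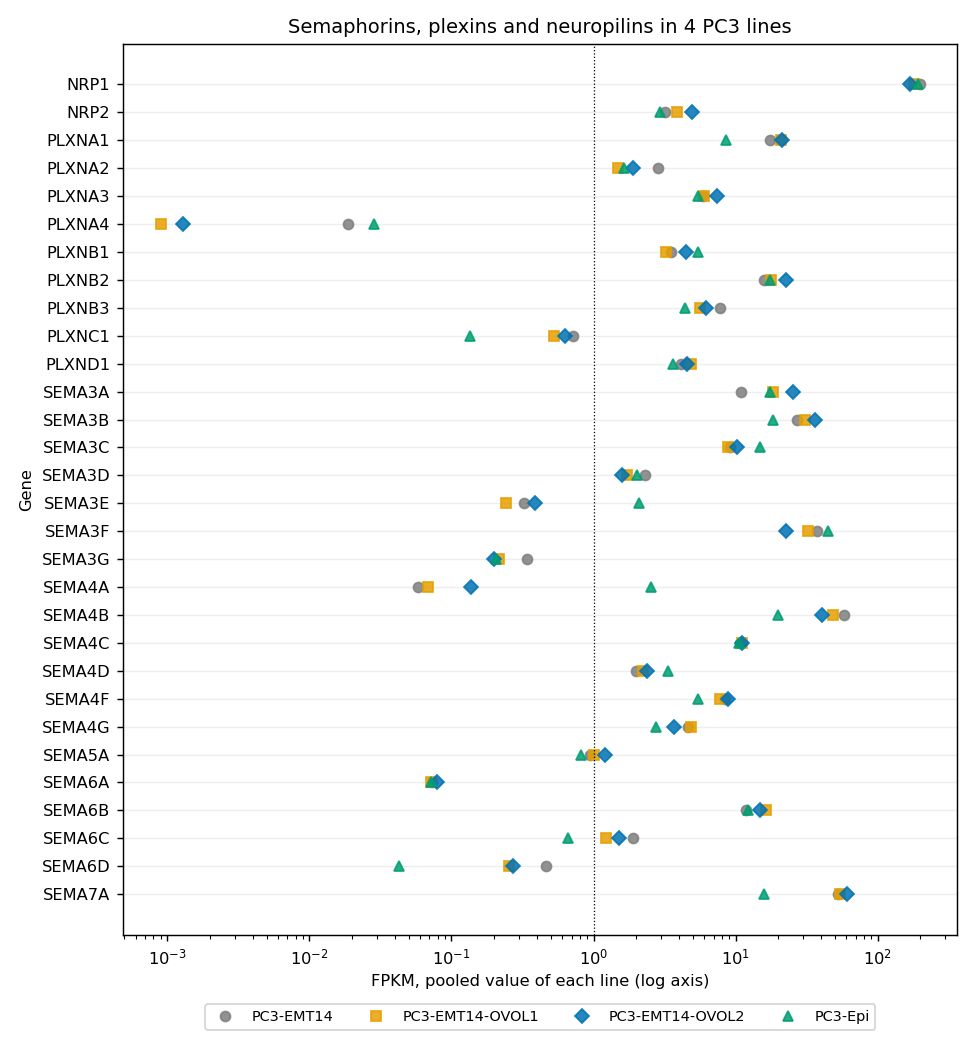
Pooled FPKM (log axis) of 30 of the 31 genes, 1 row per gene, with a marker for each of the 4 lines; SEMA5B, listed at 0, is left out, repeated values of a line are shown by their geometric mean, and the dotted line marks the floor of 1 FPKM. NRP1 stands at the far right in all lines, the green triangle of PC3-Epi lies to the right of the other lines for SEMA4A and SEMA3E and to the left for SEMA7A, SEMA4B and PLXNA1.

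The largest differences in the family lay between the epithelial and the mesenchymal line. In PC3-Epi against PC3-EMT14, 6 of the 24 genes at the floor were apart, which is 25%, beside 15.7% of all gene rows at the floor. Of these, 2 were higher in PC3-Epi (background 7.37%) and 4 were lower (background 8.34%). The median log2 ratio over the 24 genes was -0.14, against -0.01 over all rows, and the median absolute log2 ratio was 0.660 against 0.356. With 1 pooled value per line, these shares are descriptions of the family and no test of it, and fewer expressing cells cannot be told apart from less RNA per cell.

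Among the secreted class 3 ligands, SEMA3E differed most between these 2 lines. SEMA3E signals through plexin D1 without needing a neuropilin and is known for repelling endothelial cells. Its level was 0.321 to 0.331 FPKM in PC3-EMT14, 0.243 in PC3-EMT14-OVOL1, 0.386 in PC3-EMT14-OVOL2 and 2.08 in PC3-Epi, so that only PC3-Epi was above the floor. The log2 ratio of PC3-Epi to PC3-EMT14 was 2.65, a 6.30-fold difference. PLXND1, the gene for its receptor, was at 4.18 FPKM in PC3-EMT14 and 3.63 in PC3-Epi.

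SEMA3A was the 1 gene of the family that was apart in PC3-EMT14-OVOL2. SEMA3A is the classical collapsing ligand of growth cones and acts through NRP1 with class A plexins. It measured 10.8 to 11.1 FPKM in PC3-EMT14, 18.5 in PC3-EMT14-OVOL1, 25.3 in PC3-EMT14-OVOL2 and 17.6 in PC3-Epi, so all other lines were above PC3-EMT14. The log2 ratio to PC3-EMT14 was 0.76 in the OVOL1 line, 1.23 in the OVOL2 line and 0.66 in PC3-Epi, and 2-fold was passed only with OVOL2, at 2.34-fold.

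The other class 3 ligands stayed within 2-fold. SEMA3F, a ligand of NRP2, was at 37.9 FPKM in PC3-EMT14 and 44.5 in PC3-Epi in their common table, and at 32.3 with OVOL1 and 22.7 with OVOL2. The OVOL2 value lay below PC3-EMT14 by a log2 ratio of -0.70, whereas PC3-Epi lay above it by 0.23. SEMA3B, which lies near SEMA3F on chromosome 3, showed the reverse pattern with 27.7 FPKM in PC3-EMT14, 31.1 in the OVOL1 line, 36.0 in the OVOL2 line and 18.4 in PC3-Epi. SEMA3C was at 9.29 FPKM in PC3-EMT14, 8.86 in the OVOL1 line, 10.3 in the OVOL2 line and 14.9 in PC3-Epi. SEMA3D was between 1.59 and 2.33 FPKM in all lines, and SEMA3G was under the floor.

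4 of the 7 class 3 genes lie together on chromosome 7 of hg19, all on the minus strand, in the order SEMA3C, SEMA3E, SEMA3A and SEMA3D between positions 80371854 and 84751247, a window of 4.38 Mb. The log2 ratios of PC3-Epi to PC3-EMT14 along that order were 0.68, 2.65, 0.66 and -0.21. The 3 other gene rows within the window, HGF, CACNA2D1 and PCLO, were under the floor in every line. HGF is the ligand of MET, a partner of some plexins.

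SEMA4A, a membrane-bound class 4 ligand known from immune cells and the retina, had the highest ratio of the whole family. It was 0.0571 to 0.0590 FPKM in PC3-EMT14, 0.0685 in PC3-EMT14-OVOL1, 0.138 in PC3-EMT14-OVOL2 and 2.54 in PC3-Epi. PC3-Epi was the only line at the floor. With OVOL2 the level was 2.41-fold that of PC3-EMT14, at values under the floor. The log2 ratio of PC3-Epi to PC3-EMT14 was 5.43, which placed the gene at rank 202 by absolute ratio among the 12441 rows at the floor. The PC3-EMT14 value is close to 0, so the size of this ratio rests on a level whose precision is not known. The gene spans 156119735 to 156147542 on chromosome 1 (hg19, plus strand).

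SEMA4B and SEMA7A were the most abundant ligands of PC3-EMT14 and both were lower in PC3-Epi. SEMA4B, a transmembrane class 4 semaphorin, was at 56.6 to 58.4 FPKM in PC3-EMT14, 48.9 in the OVOL1 line, 40.3 in the OVOL2 line and 19.9 in PC3-Epi. Both OVOL lines lay between the mesenchymal and the epithelial line, nearer to the mesenchymal, with log2 ratios to PC3-EMT14 of -0.22 and -0.49 against -1.56 in PC3-Epi. SEMA7A, the only semaphorin anchored to the membrane by a lipid, binds plexin C1 and integrin beta 1 and is known for promoting migration. It was at 51.6 to 53.3 FPKM in PC3-EMT14, 54.8 in the OVOL1 line, 61.2 in the OVOL2 line and 15.8 in PC3-Epi. Here the OVOL lines did not lie between the others: their log2 ratios were 0.07 and 0.25, and that of PC3-Epi was -1.76. SEMA7A spans 74701630 to 74726299 on chromosome 15 (minus strand), and SEMA4B 90728152 to 90772892 on the same chromosome (plus strand), both on hg19.

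The receptors named for SEMA7A were read beside it. PLXNC1 was under the floor everywhere, at 0.732 FPKM in PC3-EMT14 and 0.135 in PC3-Epi, with 0.529 and 0.632 in the OVOL1 and OVOL2 lines. ITGB1, the integrin beta 1 gene, was at 463 FPKM in PC3-EMT14 and 284 in PC3-Epi, a log2 ratio of -0.70.

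Of the remaining membrane-bound ligands, 1 was apart. SEMA6C, a transmembrane class 6 semaphorin, was at 1.86 to 1.92 FPKM in PC3-EMT14, 1.22 in the OVOL1 line, 1.502 in the OVOL2 line and 0.660 in PC3-Epi, all of them low values. Its log2 ratios to PC3-EMT14 were -0.62, -0.31 and -1.54 in that order, and with a pseudocount of 1 FPKM in both lines the last was -0.82, short of 2-fold. SEMA4C hardly differed, between 10.5 and 11.1 FPKM in all 4 lines. SEMA4D, the ligand of plexin B1, had a log2 ratio of 0.74 in PC3-Epi (2.02 FPKM in PC3-EMT14 and 3.37 in PC3-Epi), and PLXNB1, its receptor gene, one of 0.61 (3.55 and 5.41 FPKM). SEMA4F and SEMA4G were lower in PC3-Epi by less than 2-fold, with log2 ratios of -0.66 and -0.76. SEMA6B stayed between 11.6 and 16.4 FPKM and SEMA5A between 0.815 and 1.20 FPKM.

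**Figure D2:**
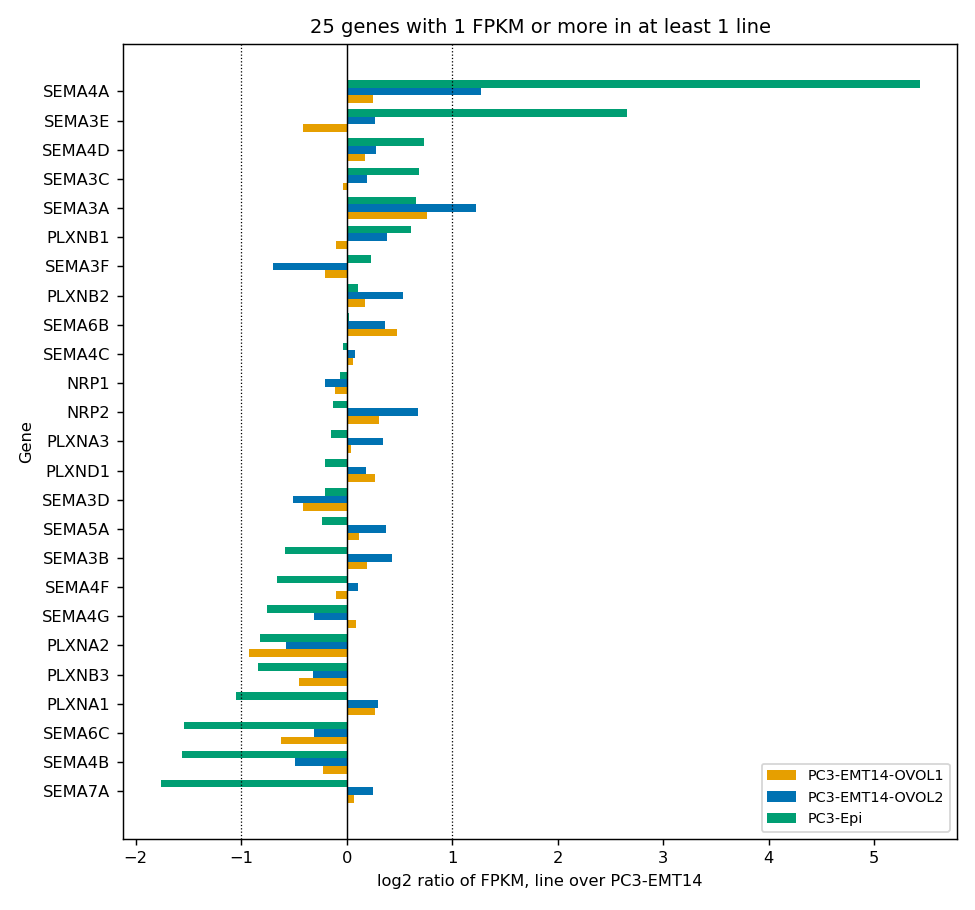
Log2 ratio of FPKM to PC3-EMT14 for the 25 genes that reached 1 FPKM in at least 1 line, ordered by the value in PC3-Epi (green), with PC3-EMT14-OVOL1 in orange and PC3-EMT14-OVOL2 in blue; dotted lines mark 2-fold in each direction. The green bars of SEMA4A and SEMA3E pass 2-fold to the right and those of SEMA7A, SEMA4B, SEMA6C and PLXNA1 to the left, SEMA3A passes it in blue, and the blue bar of SEMA4A rests on 2 values under the floor.

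Among the plexins, PLXNA1 was the only one apart. Plexin A1 is the signalling partner of NRP1 for class 3 ligands. Its level was 17.2 to 17.8 FPKM in PC3-EMT14, 21.0 in the OVOL1 line, 21.2 in the OVOL2 line and 8.62 in PC3-Epi, so that PC3-Epi was below and both OVOL lines slightly above PC3-EMT14. The log2 ratio in PC3-Epi was -1.05, a 2.06-fold difference that only just passed the rule, and with a pseudocount of 1 FPKM in both lines it was -0.97, short of it. The nearest genes outside it were PLXNB3, 1.79-fold lower in PC3-Epi (7.92 and 4.43 FPKM), and PLXNA2, 1.77-fold lower (2.89 and 1.64 FPKM).

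PLXNA2 was the gene nearest to the rule in PC3-EMT14-OVOL1, at 1.49 FPKM against 2.83 in PC3-EMT14, a log2 ratio of -0.93. It was at 1.88 FPKM with OVOL2, so PLXNA2 was below PC3-EMT14 in all 3 other lines. PLXNB2, the most abundant class B plexin, was at 16.2 FPKM in PC3-EMT14, 17.8 in the OVOL1 line, 22.7 in the OVOL2 line and 17.5 in PC3-Epi. PLXNA3 was between 5.43 and 7.41 FPKM and PLXND1 between 3.63 and 4.92 FPKM in the 4 lines.

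Neither neuropilin was apart in any comparison. NRP1 was at 194 to 200 FPKM in PC3-EMT14, 179 to 181 in the OVOL1 line, 169 in the OVOL2 line and 192 in PC3-Epi, and the largest of its log2 ratios was -0.20, with OVOL2. NRP2 was much lower, at 3.11 to 3.21 FPKM in PC3-EMT14, 3.88 in the OVOL1 line, 4.96 in the OVOL2 line and 2.94 in PC3-Epi. Its log2 ratio to PC3-EMT14 was 0.67 with OVOL2 and -0.13 in PC3-Epi.

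By the counts of the rule, the OVOL lines lay closer to PC3-EMT14 than PC3-Epi did, in the family and over all rows alike. In PC3-EMT14-OVOL1 against PC3-EMT14, 0 of the 23 genes at the floor were apart, beside 3.97% of all rows. The log2 ratios ran from -0.93 to 0.76 with a median of 0.06 (all rows: -0.00), and the median absolute log2 ratio was 0.197 (all rows: 0.154). In PC3-EMT14-OVOL2 against PC3-EMT14, 1 of 23 was apart, 4.35% beside 7.35% of all rows. The median was 0.19 (all rows: -0.04) and the median absolute log2 ratio 0.345 (all rows: 0.206). The counts of the rule thus do not show that the family differed less than other genes. These 2 comparisons and that of PC3-Epi share the PC3-EMT14 libraries, so their ratios are not independent of each other. Of the 6 genes apart between PC3-Epi and PC3-EMT14, none was apart in either OVOL line, where 3.97% and 7.35% of all rows were. The same overlap over all rows apart in PC3-Epi was not computed, so this count is not a trait of the family. SEMA4A and SEMA3E could not be called in the OVOL lines, as their values there and in PC3-EMT14 were under the floor.

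The OVOL lines were also compared directly, in a table of their own. Of the 23 genes at the floor, 0 were apart between PC3-EMT14-OVOL2 and PC3-EMT14-OVOL1, beside 3.08% of all rows. The median log2 ratio was 0.18 over the 23 genes and -0.04 over all rows. The median absolute log2 ratio was 0.229 over the 23 genes and 0.148 over all rows. The highest values were those of PLXNB1 (3.20 FPKM with OVOL1 and 4.47 with OVOL2, a log2 ratio of 0.48) and SEMA3A (18.3 and 25.3 FPKM, 0.46), and the lowest was that of SEMA3F (31.9 and 22.6 FPKM, -0.50). The amount of transgene differed greatly between these lines, as given above. The paper also describes different lentiviral constructs, purchased for OVOL1 and cloned with a V5 tag for OVOL2. The identity of the OVOL gene, its dose and its construct therefore cannot be told apart.

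Isoforms were examined where a gene had at least 2 listed and a summed level at the floor in both lines, which left 8 or 9 genes per comparison of the 14 with more than 1 isoform. A difference of 20 percentage points or more in the share of an isoform was met by 2 of 8 genes in PC3-Epi against PC3-EMT14, beside 6.15% of the 4605 genes of the tables that meet the same conditions. It was met by 0 of 9 in PC3-EMT14-OVOL1 (background 2.61%) and 0 of 9 in PC3-EMT14-OVOL2 (4.63%), each against PC3-EMT14, and by 1 of 9 between the OVOL lines (3.04%). With 8 or 9 genes, 1 or 2 of them cannot be read against such shares. SEMA4B has 2 isoforms in the tables. The first (TCONS_00011426) made up 25.3% of its FPKM in PC3-EMT14, 27.2% in the OVOL1 line, 33.2% in the OVOL2 line and 48.6% in PC3-Epi. In FPKM the first isoform was at 14.8 in PC3-EMT14 and 9.66 in PC3-Epi, and the second (TCONS_00011427) at 43.6 and 10.2, so that the lower gene level of PC3-Epi was mainly that of the second isoform. The tables give the locus of the gene and not the exons of an isoform, so whether the 2 isoforms differ in protein was not analysed here.

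NRP2 has 6 listed isoforms at low levels. TCONS_00019406 was at 0 in PC3-EMT14 and made up 29.7% of NRP2 in PC3-Epi, which was 0.872 FPKM, while TCONS_00019407 made up 17.6% in PC3-EMT14 and 0.0263% in PC3-Epi. Between the OVOL lines, TCONS_00019408 was 67.1% of NRP2 with OVOL1 and 44.6% with OVOL2. All of these isoforms were under 3 FPKM, and the authors' processing had to divide the fragments of 1 gene among 6 isoforms. For NRP1, at a much higher level, the main isoform (TCONS_00004555) made up 93.7% in PC3-EMT14, 94.5% in PC3-Epi, 83.9% in PC3-EMT14-OVOL1 and 85.1% in PC3-EMT14-OVOL2, differences under 20 points.

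**Figure D3:**
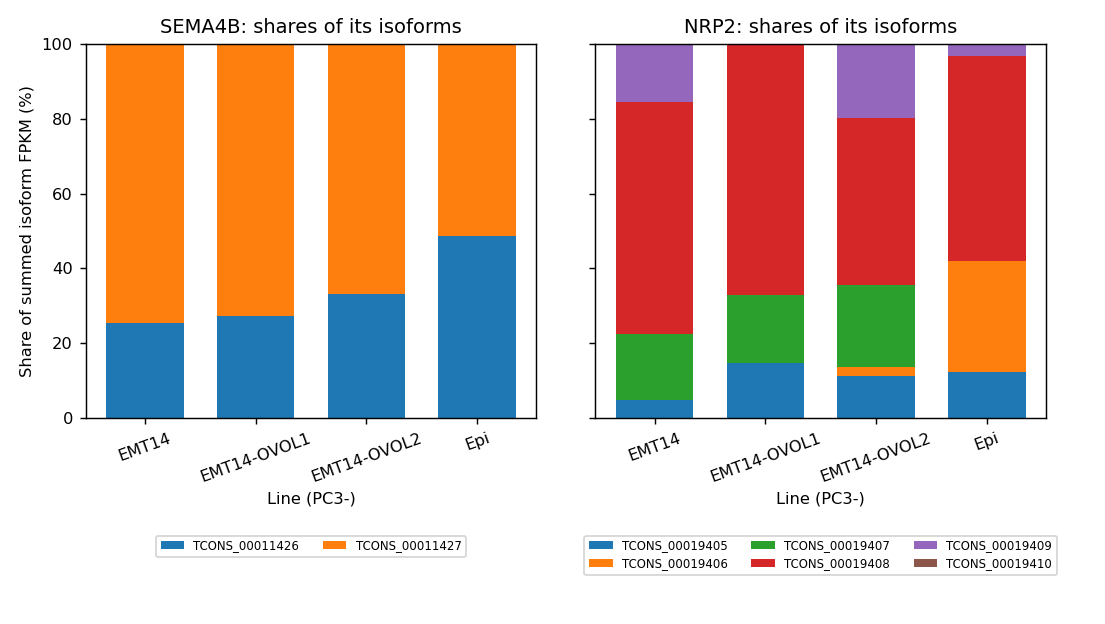
Share of each listed isoform in the summed FPKM of SEMA4B (left) and NRP2 (right), in percent, 1 stacked bar per line with a colour per isoform. The first SEMA4B isoform takes 25.3% of the PC3-EMT14 bar and 48.6% of the PC3-Epi bar, and TCONS_00019406 of NRP2 appears at 29.7% in PC3-Epi.

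Other genes of the pathway were read from a list of 47: 12 co-receptors, 5 growth factors that bind neuropilins, 3 proteases that cleave semaphorins and 27 effectors that act below plexins. In PC3-Epi against PC3-EMT14, 37 were at the floor, and of these 2 were higher (background 7.37%) and 4 lower (background 8.34%). In PC3-EMT14-OVOL1, 1 was higher and 1 lower of 36 (background in either direction 3.97%), and in PC3-EMT14-OVOL2 1 was higher and 1 lower of 37 (7.35%). Between the OVOL lines 1 of 37 was higher with OVOL2 (3.08%). The medians of the log2 ratios over the listed genes at the floor were between -0.06 and -0.01 in the 4 comparisons.

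KDR, the gene of VEGF receptor 2 and a partner of NRP1 in VEGF signalling, was lower in every line than in PC3-EMT14. It was at 15.6 to 16.1 FPKM in PC3-EMT14, 7.26 in the OVOL1 line, 3.68 in the OVOL2 line and 0.156 in PC3-Epi. The log2 ratios were -1.12, -2.08 and -6.69, and that between the OVOL lines was -0.97, short of 2-fold. VEGFA, a ligand of KDR and of NRP1, was at 15.4 FPKM in PC3-EMT14 and 23.9 in PC3-Epi, a log2 ratio of 0.63, with 19.4 and 23.3 FPKM in the OVOL1 and OVOL2 lines.

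L1CAM, an adhesion molecule that joins NRP1 in the SEMA3A receptor of neurons, was the only listed gene that was higher in all 3 lines than in PC3-EMT14 by the rule. It was at 0.515 to 0.532 FPKM in PC3-EMT14, 1.15 in the OVOL1 line, 2.94 in the OVOL2 line and 2.02 in PC3-Epi, with log2 ratios of 1.14, 2.51 and 1.92. Between the OVOL lines its log2 ratio was 1.37 in favour of OVOL2. All its values were low.

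The remaining listed genes that were apart were so only in PC3-Epi against PC3-EMT14. DPYSL3, of the family of collapsin response mediator proteins that carry the SEMA3A signal in neurons, was at 13.7 FPKM in PC3-EMT14, 10.7 in the OVOL1 line, 9.77 in the OVOL2 line and 0.745 in PC3-Epi. Its log2 ratio in PC3-Epi was -4.20, and both OVOL lines stayed near PC3-EMT14. MICAL1, an enzyme that oxidises actin below class A plexins, was at 6.11 FPKM in PC3-EMT14 and 2.25 in PC3-Epi (-1.44). ITGA1, the integrin alpha 1 gene, was at 54.8 and 12.5 FPKM (-2.14), but its row also holds PELO, a gene in the same locus, so the value is not that of ITGA1 alone. FARP1, an exchange factor that binds class A plexins, was at 5.59 FPKM in PC3-EMT14 and 11.5 in PC3-Epi (1.04). RND1, a GTPase that binds plexins, was just short of the rule at 0.876 and 1.75 FPKM (1.00). None of the 5 growth factors and none of the 3 proteases, FURIN, ADAM10 and ADAM17, was apart in any comparison.

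**Figure D4:**
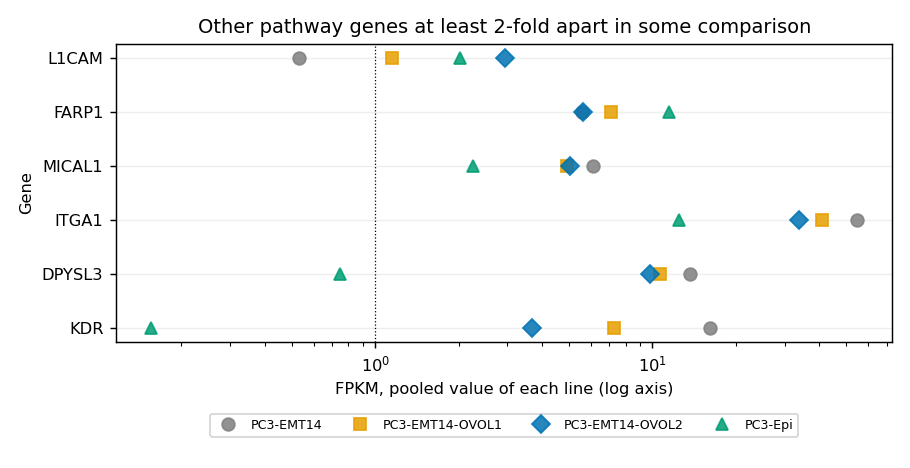
Pooled FPKM (log axis) in the 4 lines of the 6 listed pathway genes that were at least 2-fold apart in some comparison; the dotted line marks 1 FPKM and the ITGA1 row also holds PELO. KDR lies at 16.1 FPKM in PC3-EMT14, between the ends with OVOL1 and OVOL2 and at 0.156 FPKM in PC3-Epi, while DPYSL3 is far lower only in PC3-Epi.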

How the data were processed

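RNA-seq of 10 samples in 4 lines was analysed from 8 deposited tables, 4 of genes and 4 of isoforms, with 1 of each kind per comparison. Alignment was to the hg19 transcriptome of UCSC, with TopHat on paired-end reads, and the authors made the FPKM values with Cuffdiff, with upper-quartile normalization, correction for multiply mapped reads and for sequence bias, and normalization to transcriptome-compatible hits. Cuffdiff pooled the samples of a line, so the deposited values are 1 FPKM per line and table and ratios were taken only within a table. The tables also hold the authors' own fold changes, test statistics, p-values and q-values, which were not used. The number of per-sample columns left unused is 0. Depth per sample is unknown from these tables, so no interval or detection limit was computed. A strand setting is not given in the sources used here, so a gene cannot be told apart from an antisense partner.

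Genes were taken by symbol. Ratios were computed without a pseudocount in Python 3.11.15 with pandas 2.3.3 and numpy 2.4.6, and plots were drawn with matplotlib 3.10.9. The call was a ratio of at least 2 or at most 0.5 with at least 1 FPKM in the higher line. Its code was checked on simulated data with changes well past 2-fold and starting values at the floor or above. That check covers neither genes under the floor nor ratios close to 2-fold. Alternatives were other fold limits and floors, a pseudocount, centring, summed isoforms, and rows with status OK only. The genes named with values in all lines are those called in any comparison, and listed pathway genes were named by the same rule. The genes and the lists were chosen with earlier results of these data known. Positions are those of the tables on hg19, counted from 1. Of the 31 loci, 11 begin and 9 end at a transcript boundary of the annotation used, so the others differ in extent. Strands come from that annotation, and promoters from the RefSeq table on GRCh38.p14.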

Additional observations from a re-analysis of the deposited data

How the results depend on the processing

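No paired analysis was possible because the deposited values are pooled over the samples of a line, and for the same reason no sample could be left out. In PC3-Epi against PC3-EMT14, where 6 genes were apart, 15 were at a limit of 1.5-fold, 2 at 4-fold and 3 with a floor of 5 FPKM. In PC3-EMT14-OVOL2 against PC3-EMT14 (1 gene), 3 were apart at 1.5-fold, 0 at 4-fold and 3 without a floor. In PC3-EMT14-OVOL1 against PC3-EMT14 (0 genes), 3 were apart at 1.5-fold and 1 without a floor, and between the OVOL lines (0 genes) 1 without a floor. Shares over all gene rows were not computed at these other settings, so these counts cannot be set against a background. With a pseudocount of 1 FPKM, 4 genes were apart in PC3-Epi, and the calls of PLXNA1 (log2 ratio -0.97) and SEMA6C (-0.82) were lost. The counts under all remaining alternatives were within 1.5 times of those reported. Of the 28 log2 ratios of the genes apart in any comparison, 0 changed sign under a pseudocount of 1 FPKM, centring or summed isoforms. The pseudocount moved 12 of them by more than 0.1, by up to 3.69, since it pulls ratios of low values towards 0, and centring moved none by more than 0.0403. Without values per sample, the spread between samples of a line is unknown, and ratios of genes under 1 FPKM are the least certain.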
